A study of Mus musculus with 6 samples.

Results

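STAT proteins (signal transducers and activators of transcription) carry cytokine signals from the cell membrane to the nucleus, and SOCS proteins (suppressors of cytokine signaling) with their relative CISH shut those signals off again. Transcripts of 9 such genes, Stat2, Stat3, Stat4, Stat5a, Stat5b, Stat6, Socs1, Socs3 and Cish, were picked by gene name from the 55357 genes of an RNA-seq table of cultured mouse astrocytes. The cells came from the cortex of C57BL/6 embryos. One group (KE, n = 3) had been transfected with BRAF K499E, the RASopathy-associated gain-of-function form of the kinase BRAF. The labels give the genotype of this group as K499E. For immunostaining of cultured cortical astrocytes, the paper describes a plasmid in which the CMV promoter drives FLAG-tagged BRAF K499E, given with a GFP plasmid. The other group (NT, n = 3) was nontransfected, with the genotype given as naive, and the labels give 48 hours from transfection to harvest for both groups. NT cultures received no plasmid at all, so an effect of BRAF KE and an effect of transfection cannot be told apart in any value below. Neither the labels nor the methods say that the 3 samples of a group came from separate preparations, so p-values measure the spread between these samples, which may be technical.

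The comparison asks how KE and NT differ in transcripts of this pathway. Values are the authors' normalized counts, and a log2FC is the difference, KE minus NT, between group means of log2(normalized count + 1), tested with limma over the 15280 genes with a mean of at least 10. The depth per culture, estimated from the steps between low values, ran from about 24489684 to 34146253 reads. Braf had 35025, 34933 and 40978 normalized counts in KE and 925, 811 and 946 in NT. Of all 15280 tested genes, 25.3% were higher in KE and 26% lower, at an adjusted p under 0.05 from limma. Of 9 astrocyte markers, 6 were higher and 1 lower in KE. Their summed normalized count ran from 149077 to 151319 in KE and from 107987 to 113021 in NT. All 14 markers of microglia and macrophages were lower in KE, with a median log2FC of -3.37 and a sum of 5270 to 7132 in KE against 46016 to 57460 in NT. In bulk RNA, fewer cells of a type and less RNA per cell cannot be told apart. Of 8 T and NK cell markers, 6, the T cell receptor chains Cd3e, Cd3d and Cd3g among them, were listed at 0 in every culture.

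In the textbook scheme, a cytokine brings its receptor chains together, the JAK kinases bound to them phosphorylate the receptor, and STATs dock there, are phosphorylated in turn, pair up and enter the nucleus. STAT2 acts mainly downstream of type I interferon, with IRF9 as its DNA-binding partner, and in astrocytes STAT3 is known for raising Gfap during reactive gliosis. SOCS1, SOCS3 and CISH are themselves products of cytokine-induced genes and close the loop by blocking JAKs or receptor docking sites.

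Promoters of some of the members contain matches to the DNA motifs of the pathway. These are matches of letters only, since binding was not measured. RefSeq start sites were found for all 9 members, as 12 promoter windows from 250 bases before to 50 after the start (RefSeq table on GRCm38.p6), and each window had 1 exact match in GRCm39, whose coordinates are given here. The windows were searched on both strands for TTCNNNGAA, the gamma-activated sequence that STAT dimers bind, and for GAAANNGAAA, the core of the interferon-stimulated response element read by the STAT2 and IRF9 complex. Overlapping copies of a motif were counted separately, and in the members no match of 1 motif touched a match of the other. The response element core lay in windows of Stat2, Stat4 and Socs1, against 3.44% of all 32851 promoter windows of that length, and the gamma-activated sequence in those of Socs3 and Cish, against 8.3%. The 5 stretches of 30 bases are printed because they carry every match among the members, with the matched bases in capitals. They lie at chr10:128106135-128106164 (plus strand, Stat2), chr16:10603461-10603490 (minus strand, Socs1), chr1:52047292-52047321 (plus strand, the second of 2 Stat4 start sites), chr11:117860327-117860356 (minus strand, Socs3) and chr9:107173853-107173882 (plus strand, Cish).
Stat2: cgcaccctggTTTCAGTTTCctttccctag
Socs1: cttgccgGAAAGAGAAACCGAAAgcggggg
Stat4: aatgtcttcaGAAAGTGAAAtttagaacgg
Socs3: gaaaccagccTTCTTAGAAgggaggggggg
Cish: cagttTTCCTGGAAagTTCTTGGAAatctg

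In Socs1 a pair of cores overlap by 4 bases, at positions -83 to -74 and -77 to -68 from the start site. In Stat2 the single core runs from -222 to -213, read on the strand opposite to the gene. The Cish matches lie just past the start, at 1 to 9 and 12 to 20, and that of Socs3 at -154 to -146. No match was found in the windows of Stat3, Stat5a, Stat5b and Stat6, which says only that these letters are not in those windows. For Stat2, the largest riser among the members, the 235 bases upstream of its first annotated exon (chr10:128106117-128106351, plus strand) are given in full, with the core in capitals.
Stat2 upstream: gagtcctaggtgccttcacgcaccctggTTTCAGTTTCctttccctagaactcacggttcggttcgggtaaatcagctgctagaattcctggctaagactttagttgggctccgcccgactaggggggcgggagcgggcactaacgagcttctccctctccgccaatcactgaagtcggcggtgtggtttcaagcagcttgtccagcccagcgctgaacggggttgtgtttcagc

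Among the 8 members abundant enough to test, 4 were higher in KE (Stat2, Socs1, Stat5a and Stat3), 2 were lower (Stat6 and Socs3) and 2 were not called (Stat5b and Cish). That is 75% called, against 51.3% of all tested genes, of which 25.3% were higher and 26% lower. In 6 of the 8, the lowest culture of 1 group lay above the highest of the other, against 59.9% of all tested genes with groups that did not overlap. The members' median log2FC was 0.16 and their median absolute log2FC 0.51, where all tested genes had 0.00 and 0.30. Stat4 did not reach the mean of 10.

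**Figure D1:**
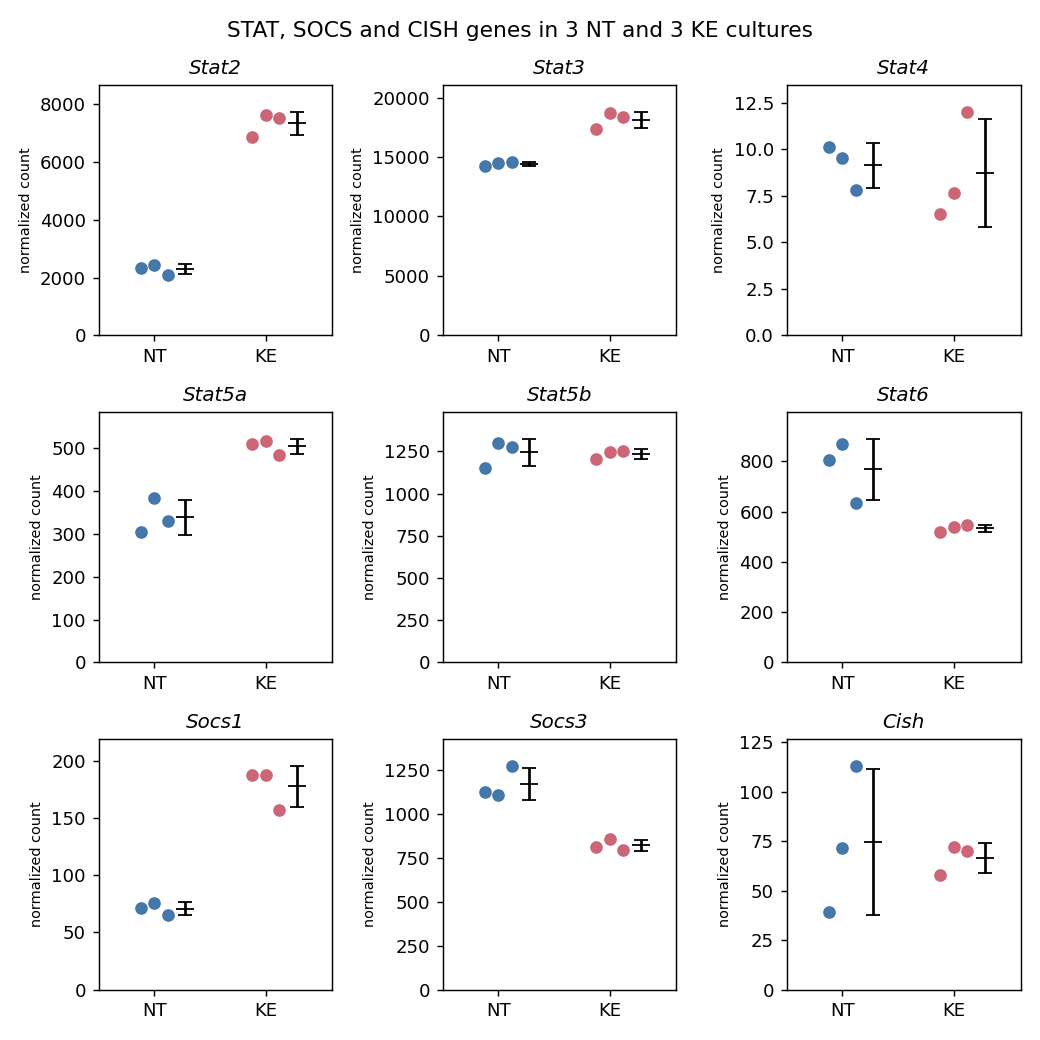
Normalized count (linear axes from 0) of each gene in the 3 NT (blue) and 3 KE (red) cultures, with mean and SD in black. Stat2, Stat3, Stat5a and Socs1 lie higher in every KE culture than in any NT culture, Stat6 and Socs3 lower, and Stat4, Stat5b and Cish overlap.

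Stat2 (ENSMUSG00000040033, plus strand of chromosome 10 of GRCm39 from 128106352 to 128128735) encodes the STAT that is devoted to type I and type III interferon signaling. Its normalized counts were 6883, 7632 and 7513 in KE and 2345, 2439 and 2100 in NT. The lowest KE culture thus exceeded the highest NT culture by 4445 normalized counts. KE averaged 7343 ± 402 (SD, n = 3) and NT 2295 ± 175 (SD, n = 3), a 3.20-fold difference with a log2FC of 1.68 (standard error 0.07, 95% interval 1.53 to 1.83, Benjamini-Hochberg adjusted p = 1.95e-08, limma). Only 1.65% of the distinct 31-base words in its transcripts occur in transcripts of another gene, so few of its reads can be shared.

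The partners of STAT2 at the membrane and on DNA did not move as one. Irf9, its DNA-binding partner, was higher in KE with a log2FC of 0.87 (adjusted p = 1.9e-06 from limma), from 2302, 2308 and 1986 normalized counts in NT to 4043, 4146 and 3874 in KE. Of the interferon receptor chains, Ifnar2, whose tail holds STAT2, rose with a log2FC of 0.51, while Ifnar1 (-0.27), Ifngr1 (-0.30) and Il10rb (-0.79) fell. Ifngr2 (-0.09) and Ifnlr1 (0.47) were not called. Ifnb1, which encodes interferon beta, was listed at 0 in all 3 NT cultures and at 233, 198 and 235 in KE.

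Stat3 (ENSMUSG00000004040, minus strand of chromosome 11 from 100775924 to 100830450) encodes the STAT of the interleukin-6 family and was the most abundant member. It had 17375, 18680 and 18347 normalized counts in KE and 14265, 14495 and 14569 in NT. The groups did not overlap, but the step between them was small. The means of 18134 ± 678 (SD, n = 3) and 14443 ± 159 (SD, n = 3) gave a log2FC of 0.33 (standard error 0.05, 95% interval 0.21 to 0.45, adjusted p = 4.2e-04 from limma). The 3′ end of Stat3 overlaps that of Stat5a, on the opposite strand, by 142 bases. Other gene models on the opposite strand overlap 1241 bases of Stat3 (Gm46295), 1186 bases of Stat5a (Gm72578) and parts of Stat4, Stat6, Socs1, Socs3 and Cish. The library kit keeps strand, but the strand setting used in counting is not given in the sources used here, so reads from such overlaps are uncertain.

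Stat5a and Stat5b encode near-copies of 1 factor, activated by growth hormone, prolactin and several interleukins, and their genes lie next to each other on chromosome 11. Stat5a (ENSMUSG00000004043, plus strand, 100750177 to 100776065) had 509, 517 and 483 normalized counts in KE and 303, 382 and 329 in NT. All KE values were higher, and the log2FC was 0.58 (standard error 0.10, 95% interval 0.35 to 0.81, adjusted p = 8.2e-04 from limma). Stat5b (ENSMUSG00000020919, minus strand, 100671556 to 100741589) had 1204, 1248 and 1253 in KE and 1153, 1303 and 1277 in NT. Here the groups overlapped, with a log2FC of -0.01 (95% interval -0.16 to 0.14, adjusted p = 0.92 from limma), so a change as large as that of Stat5a lies outside the interval. The pair shares sequence: 9.79% of the 31-base words of Stat5a and 10.9% of those of Stat5b occur in the other, and the division of those reads between the 2 genes is uncertain.

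Compared within each culture, the log2 ratio of Stat5a to Stat5b was -1.24, -1.27 and -1.38 in KE and -1.93, -1.77 and -1.96 in NT. The 3 KE ratios were all higher, by 0.59 on average. An exact two-sided permutation test over the 6 cultures gave p = 0.1, which is the smallest that 3 against 3 allows. This ratio and those of Socs1 to Socs3 and Stat2 to Stat3 were chosen after the values were seen, and with 3 such ratios the adjusted p is also 0.1. These p-values are therefore no independent evidence, and the ratios only describe the cultures.

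**Figure D2:**
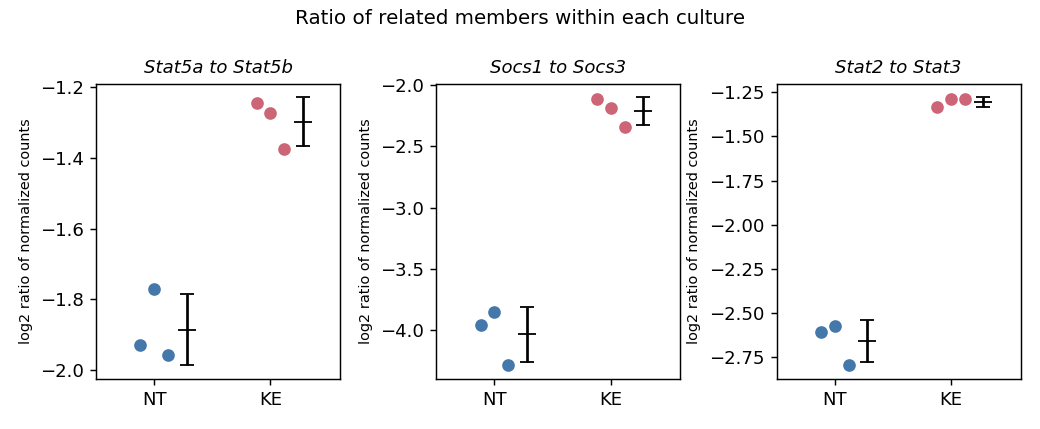
Log2 ratio of normalized counts of 2 members within each culture, for 3 NT (blue) and 3 KE (red) cultures, with mean and SD in black (the axes do not start at 0). In each of the 3 pairs the KE ratios lie above all NT ratios, by 0.59 for Stat5a to Stat5b, 1.83 for Socs1 to Socs3 and 1.35 for Stat2 to Stat3.

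Stat6 (ENSMUSG00000002147, plus strand of chromosome 10 from 127477821 to 127496862) encodes the STAT of interleukin-4 and interleukin-13. It had 519, 537 and 546 normalized counts in KE and 804, 867 and 634 in NT. Every KE culture was lower than every NT culture, although NT replicate 3 lay well below the other two. KE averaged 534 ± 13.6 (SD, n = 3) and NT 768 ± 121 (SD, n = 3), with a log2FC of -0.51 (standard error 0.11, 95% interval -0.76 to -0.27, adjusted p = 0.0027 from limma). Among the 14 microglia and macrophage markers, NT replicate 3 also had the lowest sum of the NT cultures, 46016, and the part of these cells in the Stat6 value was not tested.

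Stat4 (ENSMUSG00000062939, plus strand of chromosome 1 from 52026307 to 52151423), the interleukin-12 factor of T and NK cells, was barely detected. It had 6.52, 7.66 and 12.02 normalized counts in KE and 10.1, 9.51 and 7.79 in NT, which overlap. The difference of the log2 means was -0.09, with no test at the filter used. Of its 31-base words, 10.2% occur in the overlapping gene model Gm28177 on the same strand.

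**Figure D3:**
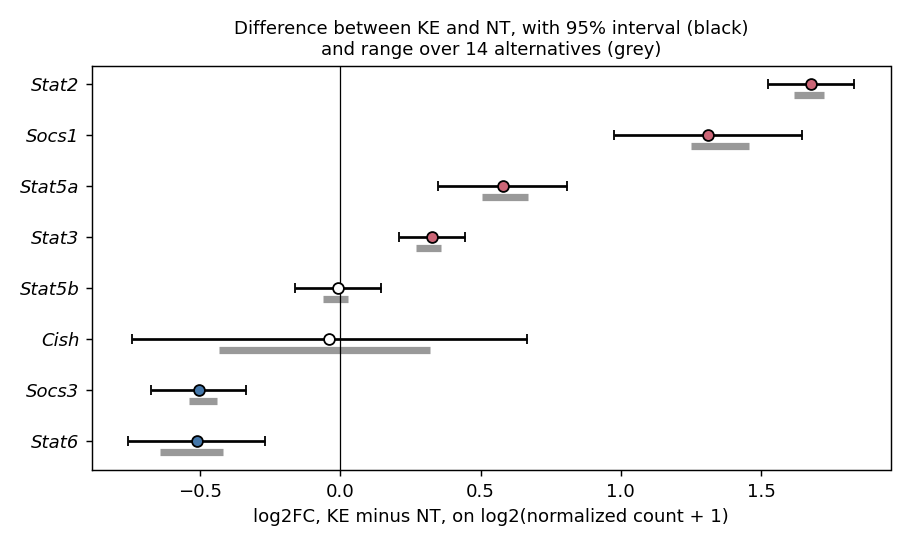
Log2FC (KE minus NT) of the 8 tested members from limma, with 95% intervals as black bars, the range over 14 alternative analyses as grey bars, and red, blue and white points for higher, lower and not called. Stat2 and Socs1 stand furthest to the right at 1.68 and 1.31, Stat6 and Socs3 lie below 0, and the interval of Cish is the widest.

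The feedback inhibitors went in different directions. Socs1 (ENSMUSG00000038037, minus strand of chromosome 16 from 10600104 to 10603875), which encodes an inhibitor of JAK kinases known for restraining interferon responses, had 188, 188 and 157 normalized counts in KE and 71.8, 76.2 and 64.9 in NT. The groups were far apart, with a 2.51-fold difference between means of 178 ± 17.7 (SD, n = 3) and 71.0 ± 5.71 (SD, n = 3). The log2FC was 1.31 (standard error 0.15, 95% interval 0.98 to 1.64, adjusted p = 3.4e-05 from limma). None of its 31-base words occurs in another gene.

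Socs3 (ENSMUSG00000053113, minus strand of chromosome 11 from 117856905 to 117860898) encodes the inhibitor that binds gp130, the shared receptor chain of the interleukin-6 family. It had 812, 854 and 795 normalized counts in KE and 1122, 1106 and 1270 in NT. All KE values were lower, with means of 821 ± 30.4 (SD, n = 3) and 1166 ± 90.3 (SD, n = 3) and a log2FC of -0.50 (standard error 0.08, 95% interval -0.67 to -0.33, adjusted p = 2.6e-04 from limma). Within a culture, the log2 ratio of Socs1 to Socs3 was -2.11, -2.18 and -2.34 in KE and -3.96, -3.86 and -4.29 in NT. Socs3 was thus the more abundant of the 2 by normalized counts in every culture, and the ratio was higher in KE by 1.83 (exact two-sided permutation p = 0.1, the smallest possible). With Socs1 higher and Socs3 lower in every KE culture, this p was fixed before the test.

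Cish (ENSMUSG00000032578, plus strand of chromosome 9 from 107173225 to 107179983), a STAT5 target that encodes an inhibitor of STAT5 docking, had 57.9, 72.0 and 70.2 normalized counts in KE. In NT it had 39.1, 71.6 and 113, so that the NT cultures spread on both sides of all KE cultures. The log2FC was -0.04 with a 95% interval from -0.74 to 0.66 (adjusted p = 0.93 from limma), which leaves room for a change as large as that of Stat5a in either direction. Leaving out NT replicate 1 moved the log2FC to -0.43 and leaving out NT replicate 3 to 0.32, neither of them called.

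Levels of different genes were compared per kilobase of annotated exon. In NT, Stat3 came first with 1431 ± 15.7 normalized counts per kb (SD, n = 3), followed by Stat2 (364 ± 27.7) and Socs3 (327 ± 25.4), whose ranges over the cultures overlapped. Stat5b, Stat6, Stat5a, Socs1, Cish and Stat4 came next, at 180, 115, 40.9, 21.0, 11.6 and 1.02 normalized counts per kb, each outside the range of its neighbour. In KE the order was the same, but Stat2, at 1164 ± 63.8 per kb, now lay above Socs3 (230.5 ± 8.55) with no overlap, and Socs1 (52.6 ± 5.25) lay just below Stat5a (60.9 ± 2.11). Exons of rare transcripts count in full in these lengths, so the order is approximate.

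**Figure D4:**
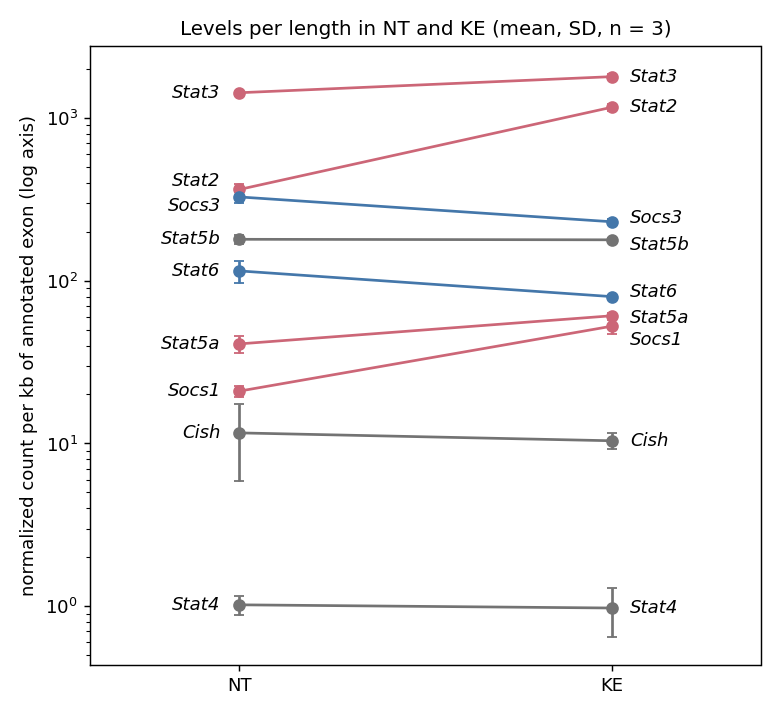
Mean level in normalized counts per kb of annotated exon (log axis, bars are SD, n = 3) of the 9 genes in NT and KE, in red for genes called higher in KE, blue for lower and grey for not called or not tested. Stat3 is at the top and Stat4 at the bottom of both groups, and the line of Stat2 moves away from that of Socs3.

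The remaining genes of the pathway were counted by role, in 8 lists with 72 genes besides the members, of which 61 were tested. In KE 23 were higher, 18 lower and 20 not called, which is 67.2% called against 51.3% of all tested genes, with a median log2FC of 0.11. Among the ligands, 7 of 13 tested were higher, Ifnb1 among them, and 4 of the other 6 (Il11, Lif, Il6 and Clcf1) act mainly through STAT3. Lif, which encodes leukemia inhibitory factor, had 898, 994 and 944 normalized counts in KE and 171, 142 and 148 in NT (log2FC 2.62, adjusted p = 1.5e-08 from limma). Il11 rose from 2.95, 5.14 and 4.74 in NT to 136, 178 and 192 in KE (log2FC 5.02), and Il6 (2.48), Clcf1 (1.37), Il7 (1.16) and Tslp (1.04) were also higher. The ligands Il10 (-4.23) and Osm (-2.89) were lower, as were the microglia and macrophage markers (median -3.37), whose part in these values was not tested. Without Ifnb1, the median log2FC of the other 12 ligands was 0.75.

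Receptors were counted by family. Of 7 receptors in the gp130 family, Osmr (0.45) and Il11ra1 (0.44) were higher, Lifr (-0.60) was lower, and 4, the common chain Il6st itself (-0.05) with Il6ra, Cntfr and Il27ra, were not called. Of 12 other tested receptors, 7 were lower and 3 higher. Over all tested genes 51.3% were called, 25.3% higher and 26% lower, and the 3 of 7 called in the gp130 family are no more than that share. The steepest falls were those of Csf2rb (-3.58), Il2rg (-3.44), Csf3r (-3.34), Il10ra (-3.21) and Il21r (-3.02), receptor chains typical of blood cells, close to the median of -3.37 for the microglia and macrophage markers. That cell type's part in these falls was not tested. The receptors that rose were Ghr (0.65), the growth hormone receptor that signals through STAT5, and Il4ra (0.57) and Il13ra1 (0.37), the chains that activate STAT6.

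The kinases had log2FC from 0.14 to 0.23. Jak2 (0.23), Tyk2 (0.22) and Jak1 (0.21) were called higher, with adjusted p of 0.025, 0.035 and 0.012 from limma, and Jak3 (0.14) was not called. Of the other SOCS genes, Socs7 (0.47) and Socs5 (0.20) were higher, and Socs2 (0.34), Socs4 (-0.16) and Socs6 (0.10) were not called. Of the PIAS genes, which encode nuclear inhibitors of STATs, Pias2 (-0.20) was lower and the other 3 were not called. The 2 of 5 other SOCS genes and 1 of 4 PIAS genes called are below the 51.3% of all tested genes, and the 3 of 4 kinases called are above it, in lists too short to read more from. The phosphatase and adaptor list held the larger changes. Usp18, an interferon-induced protein that blocks IFNAR2 with the help of STAT2, rose from 1905, 2156 and 1433 normalized counts in NT to 12771, 13348 and 12252 in KE (log2FC 2.82). Ptpn2, a nuclear STAT phosphatase, rose by 0.89. The leukocyte phosphatases Ptprc (-3.37) and Ptpn6 (-3.15) were lower, near the median of the microglia and macrophage markers, Sh2b3 (-0.70) and Ptpn1 (-0.27) were lower, and Ptpn11 (-0.04) was not called.

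**Figure D5:**
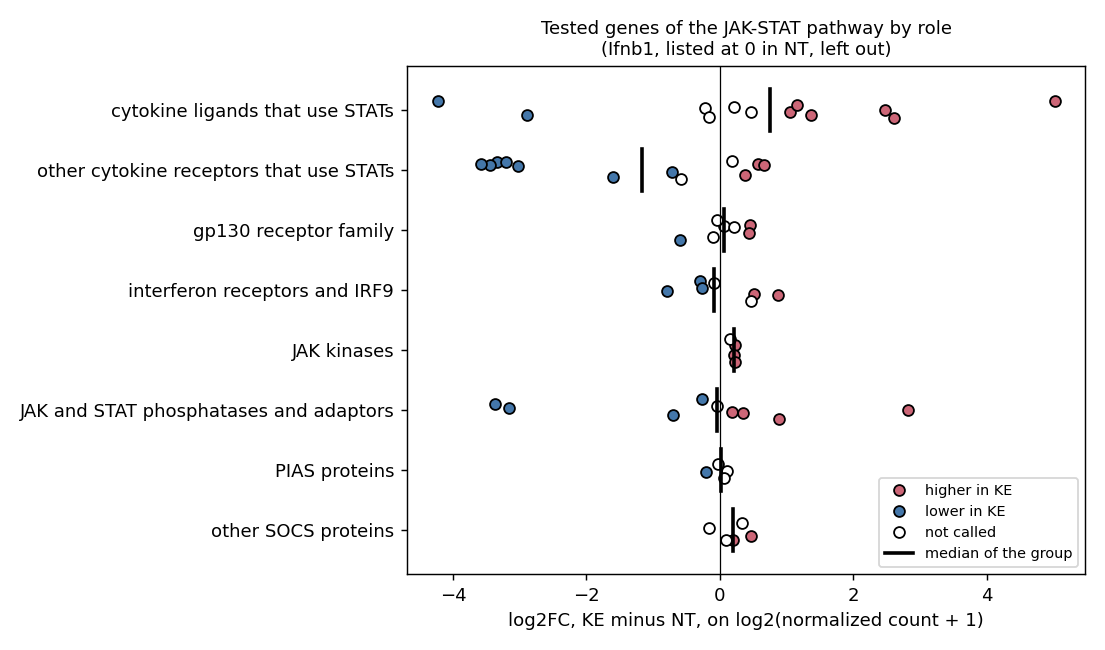
Log2FC (KE minus NT) of each tested gene in 8 lists of the pathway, in red for higher in KE, blue for lower and white for not called, with the median of each list as a black line and Ifnb1 left out because it is listed at 0 in NT. JAK kinases lie between 0.14 and 0.23, PIAS genes between -0.20 and 0.11 and other SOCS genes between -0.16 and 0.47, while the ligands shown reach from -4.23 to 5.02.

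Textbook target genes of single STATs were counted in the same way, and most of them also answer to other factors. Of 15 STAT3 targets, 12 were higher in KE, 2 were lower and 1 was not called, with a median log2FC of 0.60, where 25.3% of all tested genes were higher and 26% lower. Lcn2 (1.499), Timp1 (0.93), Gfap (0.87) and Vegfa (0.81) rose most, and Myc (-0.32) and Mcl1 (-0.16) were lower. Hif1a was called higher by a narrow margin (adjusted p = 0.0499 from limma), and its groups overlapped. The astrocyte markers, with Gfap in both lists, moved the same way (6 of 9 higher, median log2FC 0.41), and their part in this count was not tested. Socs3, also a STAT3 target, is counted among the members and was lower. All 10 targets of the STAT2 and IRF9 complex were higher, with a median log2FC of 3.64 and Mx2 (4.64) first. Interferon-response genes had been seen to rise in these cultures before the lists were made, so this count adds no independent evidence. The STAT3 list was also chosen with earlier results of these data known, so its count is not independent evidence either.

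STAT5 and STAT6 targets were mixed. Of 9 STAT5 targets, Bcl2l1 (0.80) and Bcl6 (0.30) were higher, Igf1 (-3.70), Osm (-2.89) and Ccnd1 (-0.21) were lower, and 4 were not called, Socs2 among them. With 5 of 9 called, this list lay near the 51.3% of all tested genes. The falls of Igf1 and Osm came beside the median of -3.37 for the microglia and macrophage markers, and the part of those cells was not tested. Among the STAT6 targets, Mrc1 (-4.66) and Ccl22 (-1.52), which mark alternatively activated macrophages, were lower. Mrc1 is also in the list of microglia and macrophage markers, and the part of those cells in these falls was not tested either. Il4ra (0.57) and Tgm2 (0.33) were higher, and Chil3 and Retnla were listed at 0 in every culture. Of 6 STAT4 targets and partners, 2 were tested, Hlx (-0.72) was lower and Ifng was listed at 0 throughout.

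By likeness of log2 values over the 6 cultures, among 12071 genes with a mean of at least 100, the genes closest to Stat2 were Gm20634, Tgtp1 and Trim25, with Pearson's r of 0.9999, 0.9996 and 0.9993. Their own log2FC were 1.44, 5.83 and 1.13. Tgtp1 has a near-identical copy, so its reads are uncertain. For Socs1 the closest were Hopx, Ndufs3 and Cst3, with r of 0.9997, 0.9994 and 0.9989 and log2FC of 1.10, 0.34 and 1.30. The 6 points share the division into KE and NT, and 1545 genes had an r above 0.95 with Stat2 and 1414 with Socs1, so a high r here describes that division and gets no test.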

How the data were processed

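RNA was sequenced from 3 KE and 3 NT cultures with a stranded mRNA kit. According to the methods and the labels, reads were trimmed with Trim Galore, aligned with STAR to GRCm39 (the labels list GRCh38) and quantified with Salmon. The authors deposited 1 normalized signal per gene and culture, gene counts divided by DESeq2 size factors, a scaling that would hide a shift shared by most genes. Depth was estimated as each total over its most frequent low value. Since no culture had more than 77.6% of its low values near (within 0.1) a whole number of such steps, whole reads could not be restored, no count test was run, and values carry no counting error of their own. The batches that the methods mention are not named and were not modelled.

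With limma 3.58.1 in R 4.3.3, log2(value + 1) was fitted on group, trend included, keeping the 15280 genes whose mean reached 10. Tests were two-sided with Benjamini-Hochberg adjustment over these genes, and called means an adjusted p under 0.05. On simulated data for this comparison with 15280 genes, 200 of them changed, 76% of changes of 1 and 97% of changes of 2 on the log2 scale were recovered and 9 of 15080 unchanged genes called. The simulation drew errors independently and changed far fewer genes than the 51.3% called in the data, so these rates may differ here. Members and lists were chosen with earlier results of these data known. Named genes are the members, Braf, the 4 largest changes of each list, partners of members, and the 3 genes most like the STAT and the SOCS or CISH gene with the largest change. Coordinates and exon lengths are from Gencode vM39 (54749 of 55357 identifiers matched). Some genes are left out of the text.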

Additional observations from a re-analysis of the deposited data

How the results depend on the processing

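The counts of members called (6, with 4 higher and 2 lower) were the same under all 14 alternatives, which were pseudocounts of 0.5 and 5, no filter, a mean of at least 50, quantile normalization, scaling to the 75th percentile, no variance trend, the replicate number as a block, and leaving out each culture in turn. Over them the log2FC ran from 1.62 to 1.72 for Stat2, 0.27 to 0.36 for Stat3, 0.50 to 0.67 for Stat5a, -0.64 to -0.42 for Stat6, 1.25 to 1.46 for Socs1 and -0.54 to -0.44 for Socs3, with adjusted p from limma of at most 0.018. Stat5b (-0.06 to 0.03) and Cish (-0.43 to 0.32) changed sign but were called in none. Without a filter, Stat4 had an adjusted p of 0.9. Of the 72 other pathway genes, 35 to 42 were called, and of all genes 6792 to 8046. With the replicate block, 8046 genes, 42 pathway genes and the same number of members, 6, were called. The numbers are not said to pair the cultures, and same-numbered deviations correlated at only 0.059 to 0.066 across genes, although each culture correlated best with its own number. Estimated depth was lowest in KE replicate 2, at about 24489684 reads. With 6.52 to 12.02 normalized counts per culture, Stat4 was too low to test at the filter used.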

Other observations

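Markers of other cell types were counted beside the 51.3% of all tested genes that were called. All 7 tested markers of the oligodendrocyte lineage were lower in KE, with a median log2FC of -0.55, and their sum ran from 27105 to 31875 in KE and from 35920 to 36217 in NT. Mbp (-1.89), a myelin protein gene, and Pdgfra (-0.87), a receptor of oligodendrocyte precursors, fell most, and Mog was at or near 0. Of 7 tested vascular and mesenchymal markers, 3 were lower, Acta2 (-1.34) first, and 2 were higher, Rgs5 (0.79) and Lum (0.39). Of 6 tested neuronal markers, Tubb3 (0.43) was higher, Map2 (-0.51) was lower and 4 were not called, a share of calls below that of all genes, with Rbfox3 under the mean filter. Among astrocyte markers, Slc1a2 (0.85) and Aldh1l1 (0.72) rose beside Gfap, Gja1 (-0.46) was lower, and Aqp4 (0.02) was not called. The part of these cells in the values of the STAT and SOCS genes was not tested.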
